A study of Mus musculus with 8 samples.

Results

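The genes described here are the mouse patterning factors of 9 families, namely the transcription factors of the HOX, IRX, PAX, SOX, TBX, TFAP2 and NKX families, the sine oculis homeobox genes (such as Six4 and Six5) and the EYA coactivators that join their proteins. They were chosen by symbol, whatever their level, and 115 of the 53170 named genes in the deposited table matched. RNA was sequenced from organoids grown from the glandular stomach (hindstomach) epithelium of mice at embryonic day 18.5 and cultured for 5 days in growth medium. The 4 control libraries carried Shh-Cre alone, and the 4 YAP5SA libraries carried Shh-Cre together with YAP5SA, so all 8 carried the recombinase. Shh-Cre is active in epithelium that expresses Sonic hedgehog, which includes the lining of the foregut, and YAP5SA is a form of the transcriptional coactivator YAP that the Hippo kinases cannot restrain through its mutated serines. The labels give neither the sex nor the number of embryos, nor whether the libraries of a group came from separate embryos or cultures, so the spread behind each p-value is that between these libraries and may be technical.

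Patterning factors are DNA-binding proteins, or partners of such proteins, that give regions of the embryo their identity along its axes. HOX genes lie in 4 clusters and are read out in order along the body axis, in the gut mainly by the mesenchyme and more weakly by the epithelium. In the foregut the SOX protein SOX2 marks the lining of oesophagus and stomach, while PAX9 belongs to the pharynx and the squamous lining of mouth and oesophagus, and NKX2-1 to lung and thyroid.

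Total counts per library were between 13672268 and 19710648, and levels are in CPM, counts relative to a common library size after scaling by TMM (a normalization by trimmed mean). Log2 FC stands for the log2 fold change of YAP5SA over control. The epithelial genes Epcam, Cdh1 and Krt8 were high in both groups (means of 485.7 to 1709 CPM in the controls and of 640.4 to 1082 CPM in YAP5SA), whereas the stomach claudin gene Cldn18 fell from 1353 to 2.05 CPM. Of 13 marker genes of stomach epithelium, 1 was higher in YAP5SA (Epcam), 11 were lower and 1 did not pass the test. Cdh1 and Krt8 were among the lower ones, as was Pgc, which fell from 585.9 to 1.08 CPM. The summed level of the 13 was 9698 to 10390 CPM in the controls and 6194 to 6447 CPM in YAP5SA. Xist, the RNA of the inactive X chromosome in female cells, was at 675.6 to 1049 CPM in the controls and at 0.412 to 2.76 CPM in YAP5SA. The Y-linked gene Uty was at 0 to 0.0631 CPM in the controls and at 39.3 to 45.6 CPM in YAP5SA, so sex and genotype cannot be told apart in any difference below. In these bulk samples, fewer cells of a type and less RNA per cell cannot be told apart either.

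Most of these factors were silent or nearly so, and a small set was abundant. Of the 115 genes, 46 had 0 counts in all 8 libraries, and another 46 were counted but too rarely to test. The other 23 passed the filter on low counts (about 0.611 CPM before TMM scaling, in at least 4 libraries). Of these 23, 11 were higher in YAP5SA, 6 were lower and 6 did not pass the test (adjusted p under 0.05, quasi-likelihood test of edgeR, Benjamini-Hochberg over 14058 genes). The called share was 73.9% of the tested members and 49.1% of all tested genes (23.6% higher and 25.5% lower), which is the background for every count here. With no filter on low counts, the share was 29.0% of 69 members (20 called) and 28% of 27156 genes, so the members then stood near the background. Of the tested members, 11 were called with at least a 2-fold change, 7 higher and 4 lower, against 13.8% of all tested genes. In 16 members the CPM of the groups did not overlap, against 45.7% of all tested genes. The median log2 FC of the 23 was 0.02, and 0.00412 over all tested genes. Of the 23, 18 were at the filter level in all libraries of both groups. Another 4, among them Tfap2a, Pax8 and Sox5, were at it in all libraries of the group where they were high and not in all of the other, so they passed through that group, and the shares above do not stand as support for a difference of these families.

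Per base of exon, Sox4 was the most abundant member in both groups. Its mean level per kilobase of merged exon was 46.7 CPM in the controls and 35.3 CPM in YAP5SA. In controls Sox9 (32.5 CPM per kilobase), Eya2 (19.0), Sox2 (14.9), Sox21 (12.4) and Eya3 (11.9) followed. In YAP5SA the next were Eya2 (31.0 CPM per kilobase), Sox9 (30.8), Irx2 (28.4) and Sox2 (23.1). Irx2 had stood at 3.04 CPM per kilobase in controls, below Irx3 and Irx5 (both 4.72). The summed CPM of all 115 genes was 616.4 to 722.7 in the controls and 814.3 to 841.4 in YAP5SA.

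**Figure D1:**
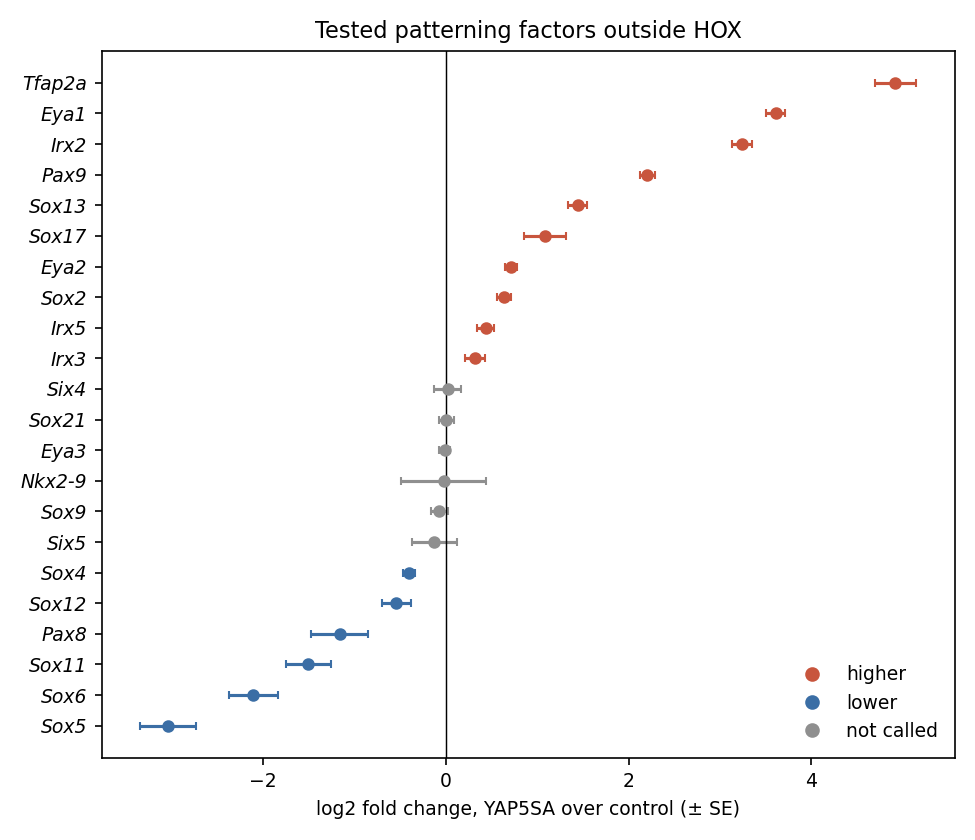
The log2 fold change (YAP5SA over control) on the x axis, with its standard error, for each of the 22 tested genes outside HOX on the y axis. It ran from −3.04 for Sox5 to 4.92 for Tfap2a, and the 6 genes in grey did not pass the test.

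**Figure D2:**
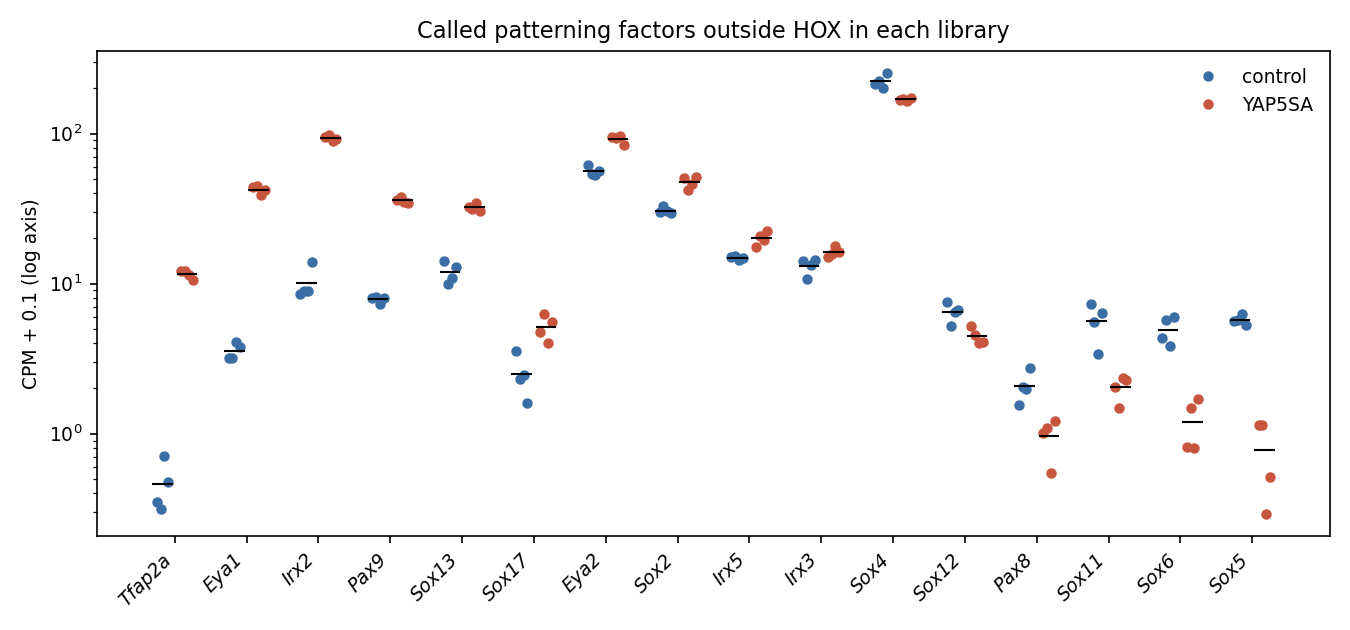
CPM plus 0.1 on a log axis for the 16 called genes outside HOX, with a point for each of the 4 control and 4 YAP5SA libraries and a bar at the group mean. The groups are apart in every gene shown except Sox12, in which the highest YAP5SA library (5.11 CPM) passed the lowest control (5.09 CPM).

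Of the SOX regulators of foregut and stomach epithelium, Sox2 rose, and Sox21 and Sox9 did not pass the test. Sox2, the SOXB factor of oesophagus and stomach, was at 29.7, 33.0, 30.3 and 29.3 CPM in controls 1 to 4 and at 50.5, 42.3, 46.0 and 51.6 CPM in YAP5SA 1 to 4. Every YAP5SA library was above every control, and the gene rose 1.55-fold (log2 FC 0.64 ± 0.08 SE, adjusted p = 1.87e-06, edgeR). Sox21, another SOXB gene of foregut epithelium, ran from 41.7 to 53.2 CPM among controls and from 43.3 to 50.7 CPM among YAP5SA libraries. Its ranges overlapped and it did not pass the test (log2 FC 0.004 ± 0.08 SE, adjusted p = 0.972, edgeR), although the sign of so small a value changed between settings. Exons of Sox21 overlap those of Gm4675 on the other strand, which fell from 2.04 ± 0.527 to 1.22 ± 0.134 CPM (SD, n = 4). Sox9, a SOXE factor of epithelial progenitors, ran from 110.1 to 156.8 CPM among controls and from 114.1 to 140.6 CPM among YAP5SA libraries (log2 FC −0.07 ± 0.09 SE, adjusted p = 0.558, edgeR). The YAP5SA range of Sox9 lay inside the control range.

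Sox17, a SOXF factor of definitive endoderm and of endothelium, was low but rose 2.11-fold. It had 3.47, 2.22, 2.34 and 1.5 CPM in the controls and 4.66, 6.18, 3.93 and 5.48 CPM in YAP5SA (log2 FC 1.08 ± 0.23 SE, adjusted p = 0.000745, edgeR). The lowest YAP5SA library was above the highest control. The related genes Sox7 and Sox18 had at most 5 counts in any library. Of 10 endothelial marker genes, 1 was higher (Tie1), 1 was lower (Tek), 2 did not pass the test and 6 were too low to test, among them Pecam1 (a mean of 0.194 CPM in the controls) and Cdh5. Their summed level was 16.0 to 22.3 CPM in the controls and 9.77 to 11.9 CPM in YAP5SA, and their part in the Sox17 result was not tested.

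The SOXC genes Sox4, Sox11 and Sox12, factors of progenitor cells in many tissues, were all lower in YAP5SA. Sox4 was at 214.7, 224.4, 202.6 and 254.2 CPM in the controls and at 167.4, 169.9, 165.7 and 173.7 CPM in YAP5SA. The groups did not overlap, but the fall was modest (log2 FC −0.40 ± 0.06 SE, adjusted p = 2.6e-05, edgeR). Sox11 fell further, from 7.20, 5.42, 3.31 and 6.23 CPM to 1.94, 1.38, 2.25 and 2.18 CPM (log2 FC −1.51 ± 0.24 SE, adjusted p = 5.55e-05, edgeR). Sox12 fell from 7.45, 5.09, 6.36 and 6.60 CPM to 5.11, 4.42, 3.93 and 4.005 CPM, with the small overlap described above (log2 FC −0.54 ± 0.16 SE, adjusted p = 0.0093, edgeR).

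The SOXD genes parted. SOXD proteins (Sox5, Sox6 and Sox13) bind DNA without an activation domain of their own and pair through coiled coils, and Sox5 and Sox6 are best known from cartilage. Sox5 fell from 5.49, 5.63, 6.21 and 5.18 CPM to 1.04, 1.05, 0.193 and 0.412 CPM, the steepest decrease among the 23 tested members (8.23-fold, log2 FC −3.04 ± 0.30 SE, adjusted p = 1.72e-07, edgeR). The YAP5SA libraries differed among themselves, with YAP5SA 3 and 4 below YAP5SA 1 and 2, yet all lay far below the controls. Sox5 was at the filter level in 4 controls and 2 YAP5SA libraries, so it was tested through the controls, where it was high. Sox6 fell from 4.23, 5.58, 3.72 and 5.85 CPM to 0.712, 1.38, 0.708 and 1.59 CPM (log2 FC −2.11 ± 0.27 SE, adjusted p = 3.52e-06, edgeR). Sox13, in contrast, rose from 14.0, 9.86, 10.7 and 12.9 CPM to 32.4, 31.1, 34.4 and 30.3 CPM (log2 FC 1.44 ± 0.10 SE, adjusted p = 2.2e-09, edgeR). Its groups were far apart as well.

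Because family members share their library, their ratio within a library does not depend on scaling. The change of the log2 ratio between groups was compared for all 15 pairs of tested genes within a family or SOX subfamily by an exact two-sided permutation test over the libraries, adjusted over the 15 pairs. With 4 libraries a group this test cannot give a p below 0.0286. In 10 pairs it reached that value (adjusted p = 0.0429, exact permutation test). The comparison was added after the values were seen. Pax8 and Sox5 had passed the filter through the controls, where they were high, so their pairs are no separate support. The ratio of Sox13 to Sox5 rose by 4.72 on the log2 scale and that of Sox13 to Sox6 by 3.62. Sox5 and Sox6 were not told apart (difference −1.10, adjusted p = 0.179, exact permutation test). Within SOXC, Sox11 fell more than Sox4 (difference −1.07, adjusted p = 0.0429, exact permutation test), while Sox12 and Sox4 differed by −0.14 (adjusted p = 0.49, exact permutation test). Sox11 and Sox12 were not told apart (difference −0.93, adjusted p = 0.117, exact permutation test). The ratio of Sox2 to Sox21 rose by 0.63.

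**Figure D3:**
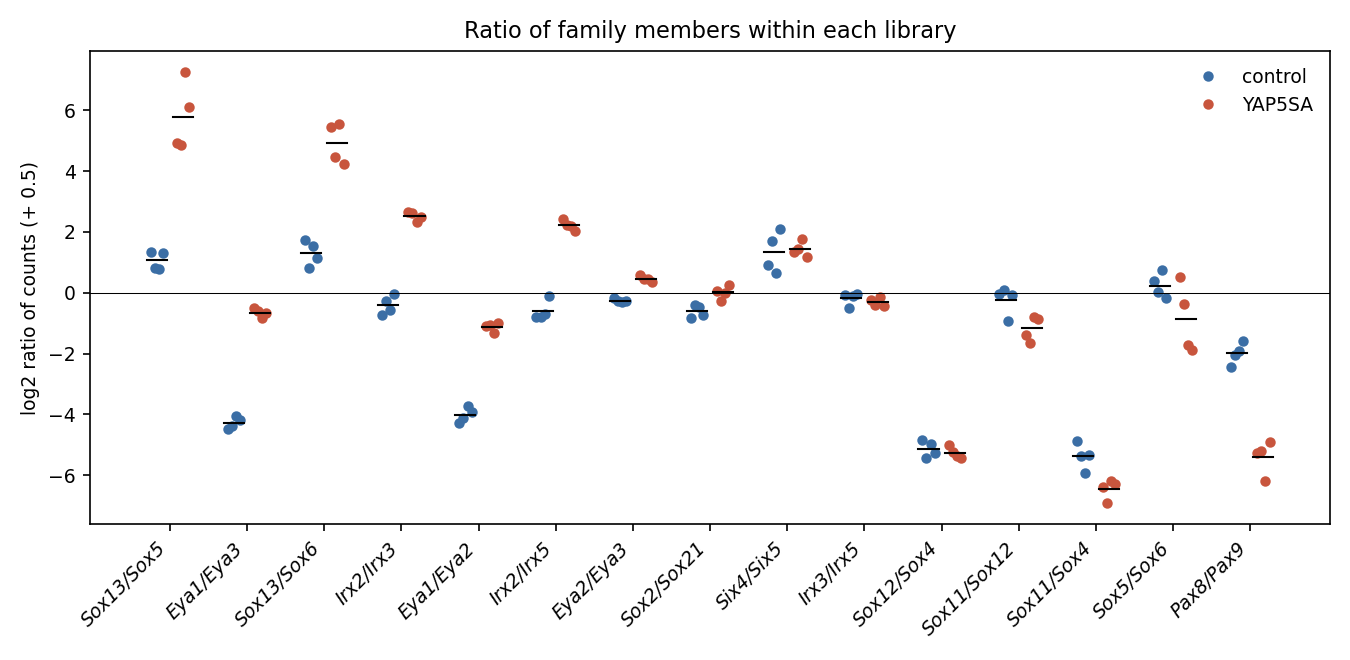
Log2 ratio of the counts of 2 family members (y axis, 0.5 added to each count) in each library, for the 15 pairs on the x axis, with a point per library and a bar at the group mean. The groups are apart for Sox13/Sox5, Eya1/Eya3 and Irx2/Irx3 (differences of 4.72, 3.62 and 2.93) and overlap for Irx3/Irx5 and Six4/Six5.

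Iroquois (IRX) homeobox genes pattern neural tube, heart and limb and are also active in lung and gut. They lie in a cluster of Irx1, Irx2 and Irx4 on chromosome 13 and one of Irx3, Irx5 and Irx6 on chromosome 8. Irx2 was at 8.46, 8.77, 8.86 and 13.8 CPM in the controls and at 94.6, 97.1, 89.3 and 91.3 CPM in YAP5SA, a rise of 9.47-fold (log2 FC 3.24 ± 0.11 SE, adjusted p = 6.09e-13, edgeR). Control 4 was above the other controls and still far below every YAP5SA library. Its cluster neighbour Irx1 was too low for the filter, with 1 count over the 4 controls and 19 over the 4 YAP5SA libraries, a ratio of pooled levels of 19.3 (95% counting interval 3.08 to 803.9, exact binomial). With no filter on low counts Irx1 was higher in YAP5SA (adjusted p = 0.00852, edgeR). Irx4 had 1 count over all libraries.

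The chromosome 8 genes rose little. Irx5 went from 14.8, 15.2, 14.3 and 14.8 CPM to 17.5, 20.6, 19.4 and 22.2 CPM (log2 FC 0.43 ± 0.09 SE, adjusted p = 0.000828, edgeR). Irx3 went from 14.0, 10.7, 13.2 and 14.3 CPM to 14.95, 15.7, 17.8 and 16.3 CPM (log2 FC 0.31 ± 0.11 SE, adjusted p = 0.0235, edgeR). The groups were next to each other in Irx3, and its call was lost without control 2 (adjusted p = 0.0905, edgeR) or without YAP5SA 3 (adjusted p = 0.0797, edgeR). The ratio of Irx2 to Irx3 rose by 2.93 and that of Irx2 to Irx5 by 2.82 on the log2 scale (adjusted p = 0.0429 for each, exact permutation test), whereas Irx3 and Irx5 were not told apart (difference −0.11, adjusted p = 0.462, exact permutation test). Irx6 had 0 counts in all libraries. Exons of Irx3 overlap those of the antisense gene Irx3os, at 0.28 ± 0.144 CPM in the controls and 0.589 ± 0.265 CPM in YAP5SA (SD, n = 4), whose reads cannot be told apart from those of Irx3 without strand.

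EYA proteins are coactivators with phosphatase activity that join the sine oculis homeobox proteins, a module known from ear, kidney and muscle. Eya1 was at 3.09, 3.09, 3.97 and 3.68 CPM in the controls and at 43.6, 44.9, 38.9 and 41.7 CPM in YAP5SA, a rise of 12.2-fold (log2 FC 3.61 ± 0.11 SE, adjusted p = 6.65e-15, edgeR). Eya2, already abundant, rose 1.64-fold, from 61.2, 54.1, 53.0 and 56.6 CPM to 94.2, 92.9, 96.6 and 83.9 CPM (log2 FC 0.71 ± 0.06 SE, adjusted p = 4.56e-08, edgeR). Neither gene had overlapping groups. Eya3 ran from 64.9 to 69.3 CPM among controls and from 62.1 to 69.8 CPM among YAP5SA libraries (log2 FC −0.01 ± 0.06 SE, adjusted p = 0.852, edgeR), and Eya4 had at most 4 counts in a library. The ratio of Eya1 to Eya3 rose by 3.62 and that of Eya2 to Eya3 by 0.73 on the log2 scale (adjusted p = 0.0429 for each, exact permutation test).

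Their sine oculis partners gave no call. Six4 ran from 5.70 to 8.18 CPM among controls and from 5.96 to 7.23 CPM among YAP5SA libraries (log2 FC 0.02 ± 0.14 SE, adjusted p = 0.932, edgeR). Six5 ran from 1.88 to 3.61 CPM and from 1.995 to 2.89 CPM (log2 FC −0.13 ± 0.25 SE, adjusted p = 0.699, edgeR). The groups overlapped in both genes. Six2, Six3 and Six6 had 0 counts in all libraries. The DACH genes, further partners of this module, gave no call either. Dach2 was the only tested member of that list of 2 (log2 FC −0.04).

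Of the 9 PAX genes 2 could be tested, and they went in opposite directions. Pax9 was at 7.96, 8.07, 7.18 and 7.95 CPM in the controls and at 36.2, 37.8, 35.0 and 34.6 CPM in YAP5SA, a rise of 4.61-fold (log2 FC 2.21 ± 0.09 SE, adjusted p = 3.77e-13, edgeR). The groups were far apart, and control 3 stood below the other controls. Pax8, a factor of thyroid and kidney, fell from 1.45, 1.95, 1.88 and 2.63 CPM to 0.906, 0.994, 0.451 and 1.12 CPM (log2 FC −1.16 ± 0.31 SE, adjusted p = 0.00491, edgeR). The ratio of Pax8 to Pax9 fell by 3.40 on the log2 scale (adjusted p = 0.0429, exact permutation test). Like the other pairs, this pair is no separate support, and Pax8 had passed the filter through the controls. Pax8 and Pax9 each have an overlapping gene on the other strand. Slc25a21, which overlaps Pax9, went the other way, from 1.33 ± 0.44 to 0.104 ± 0.13 CPM. Gm13415, which overlaps Pax8, fell with it, from 7.65 ± 1.79 to 2.87 ± 1.03 CPM (SD, n = 4), so Pax8 is uncertain where reads of the 2 genes were shared. Pax6, a factor of endocrine cells and eye, had 2 counts over all libraries, and Pax2, Pax4 and Pax5 had 0.

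Squamous epithelium, where Pax9 is best known, was checked by 9 marker genes, which went both ways. Of these, 3 were higher (Krt4, Krt6a and Sprr3), 2 lower (Ivl and Krt15), 1 not called (Krt13) and 3 too low to test. Ivl fell from 31.4 to 3.04 CPM. The summed level ran from 127.4 to 183.3 CPM among controls and from 915.3 to 1039 CPM among YAP5SA libraries, most of it Krt4 (951.0 CPM). Krt5, Krt14 and Trp63, which mark the basal layer, had group means of at most 0.539 CPM. They had 36, 8 and 2 counts over the controls and 0, 2 and 0 over YAP5SA. The part of squamous cells in the Pax9 result was not tested.

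TFAP2 genes encode the AP-2 factors of surface ectoderm, neural crest and trophoblast. Tfap2a had the largest fitted increase of the 23 tested genes, but it was at the filter level in no control and was tested only through its YAP5SA libraries. It was at 0.253, 0.217, 0.611 and 0.375 CPM in the controls, or 25 counts in all, and at 12.1, 12.0, 11.3 and 10.4 CPM in YAP5SA. The rise was 30.3-fold (log2 FC 4.92 ± 0.23 SE, adjusted p = 3.45e-12, edgeR) and the groups were far apart. Exons of Tfap2a overlap those of Gm47061, Gm26688 and Gm47067 on the other strand. These had 0 counts over the controls and 27, 9 and 0 over YAP5SA, against 756 for Tfap2a. Tfap2c and Tfap2e had at most 2 counts in a library, and Tfap2b and Tfap2d had 0 counts.

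The promoters of the 3 genes that rose most and the 3 that fell most, among called members with an entry in the RefSeq promoter table, are shown to let the reader compare genes that moved in opposite directions. Each is the 300 bases from 250 before to 50 after an annotated start (GRCm38.p6), read 5′ to 3′ along the gene, and for Tfap2a and Sox6, which have 2 and 6 windows, the most upstream. Capitals mark matches to GGAATG, the core of the site of TEAD, the DNA-binding partner of YAP, or to GCCNNNGGC, the AP-2 site, on either strand.
Tfap2a (chr13:40734871-40735170, minus strand): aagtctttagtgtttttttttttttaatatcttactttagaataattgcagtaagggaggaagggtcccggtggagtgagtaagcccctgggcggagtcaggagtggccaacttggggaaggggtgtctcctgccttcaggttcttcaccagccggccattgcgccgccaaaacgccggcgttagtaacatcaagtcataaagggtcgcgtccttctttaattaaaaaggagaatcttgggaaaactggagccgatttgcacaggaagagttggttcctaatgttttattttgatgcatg
Irx2 (chr13:72628570-72628869, plus strand): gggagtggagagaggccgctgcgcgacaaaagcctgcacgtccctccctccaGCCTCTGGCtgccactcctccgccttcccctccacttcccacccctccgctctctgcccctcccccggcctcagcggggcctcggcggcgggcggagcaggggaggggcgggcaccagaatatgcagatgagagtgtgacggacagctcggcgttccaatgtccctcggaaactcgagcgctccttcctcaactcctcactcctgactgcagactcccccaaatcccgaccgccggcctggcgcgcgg
Pax9 (chr12:56695221-56695520, plus strand): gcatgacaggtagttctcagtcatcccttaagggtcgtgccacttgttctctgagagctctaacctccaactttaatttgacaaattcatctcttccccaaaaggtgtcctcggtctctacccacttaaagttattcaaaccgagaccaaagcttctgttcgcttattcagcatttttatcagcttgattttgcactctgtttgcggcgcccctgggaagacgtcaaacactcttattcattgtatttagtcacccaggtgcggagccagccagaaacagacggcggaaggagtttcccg
Sox5 (chr6:143947057-143947356, minus strand): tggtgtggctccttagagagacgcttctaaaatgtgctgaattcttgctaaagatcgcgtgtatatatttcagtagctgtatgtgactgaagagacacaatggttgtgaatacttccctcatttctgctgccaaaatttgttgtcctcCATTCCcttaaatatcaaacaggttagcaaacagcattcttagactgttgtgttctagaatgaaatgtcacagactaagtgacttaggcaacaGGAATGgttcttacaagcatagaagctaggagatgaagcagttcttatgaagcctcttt
Sox6 (chr7:116038695-116038994, minus strand): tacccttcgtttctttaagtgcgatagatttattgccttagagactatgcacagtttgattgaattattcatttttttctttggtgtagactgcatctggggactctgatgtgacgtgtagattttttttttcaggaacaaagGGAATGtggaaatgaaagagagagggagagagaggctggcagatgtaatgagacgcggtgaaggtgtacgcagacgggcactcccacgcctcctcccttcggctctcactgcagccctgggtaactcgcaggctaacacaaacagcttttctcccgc
Sox11 (chr12:27342669-27342968, minus strand): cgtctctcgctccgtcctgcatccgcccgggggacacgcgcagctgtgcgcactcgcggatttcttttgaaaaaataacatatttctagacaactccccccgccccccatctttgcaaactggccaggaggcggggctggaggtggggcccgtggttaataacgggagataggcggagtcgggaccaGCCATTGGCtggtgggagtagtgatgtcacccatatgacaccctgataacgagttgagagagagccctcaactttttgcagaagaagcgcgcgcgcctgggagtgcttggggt

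The windows of Tfap2a and Pax9 held no match to either motif. Sox5 held GGAATG on both strands, at 102 and 9 bases before the start, and Sox6 held it at 107 bases before the start. The AP-2 motif stood in Irx2 and Sox11. Over the 24 windows of all tested members with an entry (17 genes), GGAATG was found in 4, those of Sox4, Sox5 and Sox6. GCCNNNGGC was found in 3 of the 24, those of Irx2, Sox11 and Sox21. Of all 32851 promoter windows, 14.7% hold GGAATG and 16.6% hold GCCNNNGGC. Motifs for AP-1 (TGANTCA, 7.81% of windows) and SOX proteins (AACAAT, 10.7%) were also searched and gave no match in the 6 windows shown. The motifs do not overlap each other there. A match describes the letters of these windows only.

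Most HOX genes were not detected. Of 39, 24 had 0 counts in all 8 libraries, among them all 9 genes of the HOXD cluster. At 0 counts over a group, levels up to 0.0446 CPM in the controls and 0.0454 CPM in YAP5SA are allowed (3 counts, counting error only). Hoxa5, a regulator of stomach regional pattern in the mouse, had 1 count over all libraries. Hoxc4 had 19 counts over the controls and 32 over YAP5SA, a ratio of 1.71 (95% counting interval 0.943 to 3.20, exact binomial).

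Mesenchyme, the main site of HOX expression in the gut, left little RNA in these libraries. The 12 mesenchymal marker genes summed to 1.88 to 4.36 CPM in the controls and 0.718 to 1.83 CPM in YAP5SA, 2 of them (Lum and Barx1) were at 0 counts in all libraries, and none was high enough to test. The part of mesenchyme in the low HOX counts was not tested.

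The TALE cofactors that bind DNA with HOX proteins were abundant all the same. Of 11, 9 were tested, with 4 lower, 1 higher and 4 without a call (median log2 FC −0.30). Meis2 fell from 44.3 ± 5.3 to 13.1 ± 2.4 CPM (log2 FC −1.75, SD, n = 4), and its groups did not overlap.

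NKX and TBX genes were mostly at the limit of detection. Nkx2-9 was the only tested gene of 14 NKX genes, with 0.15 to 1.08 CPM in the controls and 0.387 to 1.22 CPM in YAP5SA (log2 FC −0.02 ± 0.47 SE, adjusted p = 0.972, edgeR). Nkx2-1, the lung and thyroid factor, had 0 counts in all libraries. Nkx6-3, a homeobox gene of the mouse antrum needed for gastrin cells, had 0 counts in the 4 controls and 2, 1, 3 and 9 counts in YAP5SA 1 to 4. With the controls set to a floor of 3 counts in all, its pooled level was at least 5.09-fold higher. It was called with no filter on low counts (adjusted p = 0.00627, edgeR), with most of its counts in YAP5SA 4.

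None of the 13 TBX genes passed the filter. Tbx2, a T-box repressor known mostly from heart, limb and lung mesenchyme, was the only one of them called with no filter (adjusted p = 0.000322, edgeR). It had 15, 4, 5 and 9 counts in the controls and 1, 0, 1 and 0 in YAP5SA, a ratio of pooled levels, control over YAP5SA, of 16.2 (95% counting interval 4.14 to 139.4, exact binomial). The summed mesenchymal markers given above were also lower in YAP5SA, and their part in the Tbx2 result was not tested. Tbx15 had 14 counts over the controls and 3 over YAP5SA, and Tbx6 had 5 and 18, neither called without the filter (adjusted p = 0.161 and 0.159, edgeR). Tbx3 had 3 counts over all libraries and Tbx5 had 0.

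Homeobox and other regional genes outside these families also moved in both directions. Of a list of 54 such genes, known from the gut or from elsewhere in the embryo, 10 were tested, with 4 higher, 5 lower and 1 without a call (median log2 FC −0.26). Pdx1, the homeobox factor of antrum, duodenum and pancreas, was at 0.884, 0.758, 0.967 and 1.13 CPM in the controls and had 0 counts in all YAP5SA libraries, at least 20.3-fold lower when YAP5SA is set to a floor of 3 counts in all. Barx2 fell from 5.53 ± 1.12 to 0.16 ± 0.171 CPM. Pitx1, known from hindlimb and pituitary, rose from 23.0 ± 1.7 to 93.5 ± 7.9 CPM, and Mnx1, known from motor neurons and pancreas, from 10.2 ± 2.6 to 46.5 ± 1.9 CPM (SD, n = 4). The posterior gut factors Cdx1, Cdx2 and Cdx4 had 0 counts in all libraries.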

How the data were processed

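The authors deposited a table of read counts, 1 whole number per gene in each of 8 libraries, with no normalization. Libraries were prepared from total RNA and sequenced as 150 bp paired ends, per the labels' protocols. Per the submitters' processing notes, HISAT2 2.0.1, HTSeq 0.6.1 and cutadapt were used, with mm9 as the build. How reads were assigned to genes, by which annotation and with or without strand, is not given in the sources used here, so reads shared by overlapping genes, antisense ones included, cannot be assigned.

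The 2639 rows without a gene name (0.190% to 0.221% of counts) were left out and rows sharing a symbol were summed. Genes were kept by filterByExpr (minimum count 10, minimum total 15), scaled by TMM and fitted for genotype alone by robust quasi-likelihood (R 4.3.3, edgeR 4.0.16), with Benjamini-Hochberg adjustment across the 14058 genes kept. The standard error was taken as log2 fold change over the square root of F. Exon lengths, chromosomes and overlaps came by symbol from GENCODE M21 (GRCm38), another build than that of the counts, and matched all 115 members. Lengths merge the exons of all transcripts, so levels per kilobase are approximate. Pooled ratios carry exact 95% binomial intervals, and intervals and floors cover counting error only.

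Values are given for the up to 4 called members of each family with the largest changes each way, its 3 most abundant tested members and most of a list of foregut genes. They are per library for called members, ranges for tested members without a call, and counts for members too low to test. The low members named (Irx1, Tbx2, Tbx6, Tbx15, Hoxc4) and the related genes given as examples were picked after their values were seen. Values of a few single genes are not reported here. The members and lists were chosen with earlier results of these data known. The comparison of pairs within families was added after the values were seen. In simulated data for this comparison, 200 genes were changed and 13882 were tested. Of the changes, 71.6% of 1.5-fold, 88.1% of 2-fold and 95.5% of 4-fold ones were recovered, and 16 unchanged genes were called. The simulated share of changed genes was far below the 49.1% called in the data, so these rates need not hold there.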

Additional observations from a re-analysis of the deposited data

Results flagged for a closer look

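Among 46 groups of 4 libraries (23 tested genes, each in controls and in YAP5SA), 2 held a library far from the other 3, with a gap above Dixon's 95% critical value for the group's range. Chance flags about 1 in 20 groups. Irx2 in control 4 was at 13.8 CPM, against 8.46 to 8.86 CPM in the other controls. Pax9 in control 3 was at 7.18 CPM, against 7.95 to 8.07 CPM in the other controls.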

How the results depend on the processing

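The 17 calls remained under DESeq2 size factors, library size alone and the replicate block, and Irx3 alone was lost at a threshold of 0.01. Counts of members were 10 to 11 higher and 6 lower in YAP5SA when each library was left out in turn, the lost call being Irx3 without control 2 or YAP5SA 3. Over all genes they were 2959 to 3595 higher and 3412 to 3722 lower. With at least a 2-fold change required, 7 members and 740 genes were higher and 1207 genes were lower. The stricter filter (at least 1 CPM in 4 libraries) tested 21 members and called 16 of the 17, the other no longer being tested, while no filter (20 of 69 members, 29.0%, against 28% of all genes) and the DESeq2 Wald test (20 of 31 members, 64.5%, against 35.8% of all genes) called the 17 and in addition Irx1, Nkx6-3 and Tbx2. The share of members called thus stood above that of all genes under the filters and near it with none.

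No pairing of the libraries by sample number was seen (correlations of deviations from the group means between −0.0793 and 0.0936), though such values cannot show that none exists. A fit with the sample numbers as a replicate block called 3192 genes higher and 3394 lower in YAP5SA and the same 17 members.

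Values near 0 changed sign for 6 genes without a call, and the cause was not tested. Eya3 came to 0.0135 (library size alone) and 0.0039 (no filter), Nkx2-9 to 0.0070 (DESeq2), 0.0019 (library size alone) and 0.00197 (no filter), and Sox21 to −0.0022 (stricter filter). With a library left out, Eya3 ran from −0.0431 to 0.011, Nkx2-9 from −0.33 to 0.20, Six4 from −0.058 to 0.127, Six5 from −0.268 to 0.0535, Sox21 from −0.0567 to 0.0585 and Sox9 from −0.161 to 0.013 on the log2 scale. The difference of Six4/Six5 ran from −0.14 to 0.34. A pseudocount of 2 in place of 0.5, chosen after seeing the data, ended no call among the 15 pairs. Leaving out a library cannot bring the exact test of a pair under 0.05. For genes under about 1 CPM, depth sets the limit.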
